A study of Mus musculus with 12 samples.

Results

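Prl2c5 is a proliferin gene of the mouse. It is 1 of 6774 named genes on these arrays, and 1 of the 9558 probes was annotated to it. It was chosen because its ratio was the lowest of all rows with at least 2 dye-swap pairs in low calcium, a row being a gene or an unnamed probe, so its low calcium values are described here without a test. The samples were primary skin keratinocytes of C57Bl/6NCr mice. All had received an adenovirus, which encoded either deltaNp63alpha, an isoform of p63 made from an internal promoter and lacking the transactivation domain at the N terminus, or, as the control, beta-galactosidase. Cells stayed in 0.05 mM calcium (low calcium) or were moved to 0.12 mM calcium for 24 hours (high calcium), a switch that starts keratinocyte differentiation, and RNA was taken 41 hours after transduction. Each of 12 spotted cDNA arrays compared both RNAs of 1 calcium level, with 3 repeats per level. Each repeat was hybridised once with deltaNp63alpha in the dye Cy5 (forward) and once with it in Cy3 (reversed), and such a pair was treated as a single replicate. The series describes its arrays as technical repeats, so p-values measure only the spread between these arrays and not between mice or cultures. The cells overexpressed the protein from a virus, and no array set one calcium level against the other.

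Proliferins are secreted glycoproteins of the prolactin and growth hormone family. In the mouse they are made mainly by trophoblast giant cells of the placenta, where they promote blood vessel growth, and they bind the mannose-6-phosphate receptor that also binds insulin-like growth factor 2. Cultured mouse fibroblasts make them when stimulated with growth factors, and a member of the group has been described in hair follicles and wounded skin of mice. Transcription of proliferin in cultured cells is a classical example of joint control by AP-1 and the glucocorticoid receptor.

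The proliferin genes Prl2c2, Prl2c3 and Prl2c5 lie close together on chromosome 13, with pseudogenes and long noncoding RNA genes between them (RefSeq, GRCm38.p6). They are so alike that a spotted cDNA of one can bind RNA of another, and the values below are those of the probe annotated to Prl2c5, not of a transcript known to come from that gene alone. The start regions of Prl2c5 and Prl2c3 are printed as an example of likeness between these genes. They are RefSeq sequences of GRCm38.p6, 300 bases each, 5′ to 3′ on the strand of the gene, at chr13:13182466-13182765 (plus strand) for Prl2c5 and chr13:12800030-12800329 (minus strand) for Prl2c3. Capitals mark bases that differ from the other sequence or have no partner in the alignment.
Prl2c5: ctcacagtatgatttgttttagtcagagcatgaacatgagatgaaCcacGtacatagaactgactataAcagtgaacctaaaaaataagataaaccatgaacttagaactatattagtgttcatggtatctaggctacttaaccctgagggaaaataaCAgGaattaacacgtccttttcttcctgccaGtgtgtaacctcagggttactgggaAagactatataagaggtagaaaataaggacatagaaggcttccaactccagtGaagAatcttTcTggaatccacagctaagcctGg
Prl2c3: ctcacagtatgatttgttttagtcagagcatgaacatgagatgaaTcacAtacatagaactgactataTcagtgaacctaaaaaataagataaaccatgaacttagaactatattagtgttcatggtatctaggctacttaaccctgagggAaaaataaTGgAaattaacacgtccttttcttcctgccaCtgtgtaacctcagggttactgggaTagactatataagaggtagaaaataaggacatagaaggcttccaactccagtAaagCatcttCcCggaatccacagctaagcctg
Of 299 aligned positions 287 were identical (96.0%). The AP-1 motif TGACTCA, the glucocorticoid receptor half-site TGTTCT and the p53 family half-site, searched on both strands, were not found in either window. They were present in 5.2%, 19.0% and 8.36% of all 32851 promoter windows of the same length. These are counts of letters in a short window and say nothing about binding. No transcripts were aligned, and Prl2c2 had no promoter window to compare. The identity of the windows therefore does not show how far the probes share RNA.

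Each array value was deposited as a log2 dye ratio without saying which dye is the numerator. They were read as Cy5 over Cy3, the usual order, and the reversed arrays were turned in sign so that a negative value means less RNA in the deltaNp63alpha cells. This direction is likely and not settled. It also rests on the series title, which names a gene repressed by deltaNp63alpha. The single Trp63 probe, which would detect the targeted gene if it binds the transgene, was not called at either level and lay below 0 in its mean (log2 ratio -0.16 ± 0.25 in low and -0.55 ± 0.25 in high calcium, SE, n = 2 pairs each; limma adjusted p = 0.919 and 0.446). It did not bear out the direction, under which a bound transgene would read above 0. Its pairs were -0.78 and 0.45 in low calcium and -0.59 and -0.51 in high calcium. The pair at 0.45 holds a turned reversed value of 1.905, which stood apart from the other low calcium arrays. Whether the probe binds the transgene was not tested. Arrays differed in how many probes were measured, from 3366 to 9096. The fewest were on both arrays of low calcium repeat 3 and of high calcium repeat 3, and the reversed array of low calcium repeat 2 held 4998. Precision is limited by the small number of arrays.

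In low calcium Prl2c5 gave a value on all 6 arrays, and the sign turned with the dye in every repeat. The deposited ratio in repeat 1 was -2.05 on the forward array and 3.40 on the reversed array. In repeat 2 it was -1.34 on the forward and 2.42 on the reversed array, and in repeat 3 it was -2.31 and 2.27. The RNA labelled deltaNp63alpha therefore had the lower signal in either dye, under the reading as Cy5 over Cy3. After turning, the pair values were -2.73, -1.88 and -2.29 in repeats 1 to 3, or 6.63-fold, 3.68-fold and 4.89-fold lower with deltaNp63alpha. Their mean was -2.30 ± 0.42 on the log2 scale (SD, n = 3 pairs), which is 4.92-fold lower. The pair furthest from 0 was that of repeat 1, whose arrays had the most measured probes, and all 3 pairs lay on the same side of 0.

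**Figure D1:**
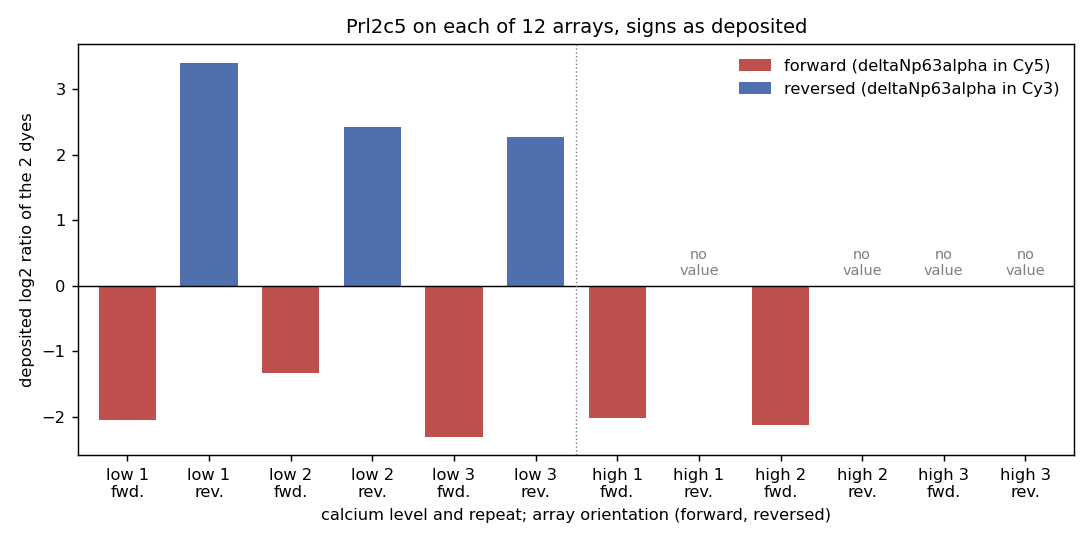
Deposited log2 dye ratio of the Prl2c5 probe on each array (y axis), by calcium level, repeat and orientation (x axis); bars are single arrays and grey text marks arrays without a value. The 3 low calcium forward arrays lie between -2.31 and -1.34 and their reversed partners between 2.27 and 3.40; in high calcium 2 forward arrays have a value.

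In repeats 1 and 2 the reversed array lay further from 0 than the forward array, and in repeat 3 both were nearly equal. After turning, the reversed arrays of low calcium averaged -2.70 ± 0.62 and the forward arrays -1.90 ± 0.50 (SD, n = 3 arrays each). The component common to both orientations, which does not turn with the dye, was 0.68, 0.54 and -0.02 in repeats 1 to 3. It was smaller than the pair value in every repeat. If the deposited signs are kept and the reversed arrays left unturned, only this component remains, and the low calcium mean becomes 0.40.

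Within its array the probe was among the lowest, more so on the reversed arrays. On the reversed array of low calcium repeat 1 it had the lowest turned ratio of 8934 probes. It ranked number 6 of 4998 on the reversed array of repeat 2 and number 24 of 4137 on that of repeat 3. On the forward arrays it ranked number 69 of 8723, 578 of 6974 and 130 of 3789 in repeats 1 to 3. Its forward value in repeat 2 lay inside the range that holds the middle of all probes, whose 5th percentile there was -1.66. By the mean of the pairs Prl2c5 was the lowest of the 4646 rows with at least 2 low calcium pairs. With the numerator of the dyes exchanged it would be the highest, at 2.30. The next named genes among those with 3 pairs were Sprr1a, a precursor protein of the cornified envelope (-2.15, from pairs at -1.51, -2.13 and -2.82), and Flg, which encodes filaggrin (-1.51, from pairs at -1.02, -1.003 and -2.52). The gap between Prl2c5 and Sprr1a was smaller than the SD of either gene over its pairs (0.42 and 0.65). Without repeat 1 the order of both turned, with Sprr1a lowest at -2.48 and Prl2c5 next at -2.08 among 2526 rows.

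**Figure D2:**
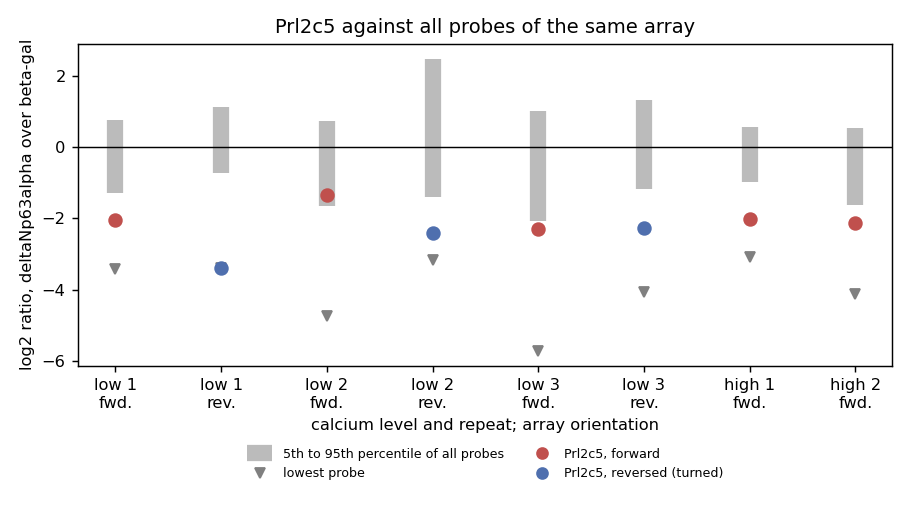
Log2 ratio of Prl2c5 after turning (points) on the 8 arrays that measured it, against the 5th to 95th percentile (grey bars) and the lowest value (triangles) of all probes on the same array. Prl2c5 lies below the bar on 7 arrays and inside it on the forward array of low calcium repeat 2; on the reversed array of low calcium repeat 1 it is the lowest probe.

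In high calcium the probe had a value on 2 of 6 arrays, both forward, so no dye-swap pair could be formed. The forward array of repeat 1 read -2.03 and that of repeat 2 read -2.13. Both values lie within the range of the low calcium forward arrays (-2.31 to -1.34). Neither reversed array of these repeats had a value, although 8904 and 9050 of the 9558 probes did on them, and both arrays of the sparse repeat 3 lacked one. Such a gap is rare: of 2343 rows with all 3 low calcium pairs, 6 had no high calcium pair, and Prl2c5 was one of them. Missing reversed values were more frequent among probes with a low forward ratio. Of probes at or below -2 on the forward array of high calcium repeat 1, 2 of 25 had no reversed value (8.00%, against 3.18% of all probes with a forward value). In repeat 2 this was 21 of 194 (10.8%, against 3.58%). Prl2c5 is itself among the missing probes in both counts, so the small count of repeat 1 says little. At or below -1 in high calcium repeat 1, 19 of 374 probes had no reversed value (5.08%). The excess was small in low calcium repeat 2 (34.8% at or below -2, against 32.6%).

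The ratio that chose the gene holds no high calcium value, and the forward arrays of high calcium were tested on their own. Earlier results of these data were known when this test was chosen. The mean of these forward arrays was -2.08 ± 0.18 (limma SE, n = 2 arrays; 95% interval -2.60 to -1.55), which is 4.22-fold lower. Any dye bias is part of this mean, and neither the SE, the interval nor the p-value covers it. The mean did not pass after adjustment over 7664 rows (limma adjusted p = 0.150, unadjusted p = 0.000598). No row passed this test (0% of 7664, with 1922 at an unadjusted p under 0.05). Without the sparse repeat 3, which holds no Prl2c5 value, the limma adjusted p was 0.0907. With the dye component of the low calcium pairs (0.40) taken off, in a fit of all 8 arrays, the high calcium value was -2.48. It is given as a description with no test, because 6 of the 8 values and the whole dye component come from the low calcium arrays that chose the gene.

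Rows with a lower forward ratio than Prl2c5 had pair values nearer to 0. By the forward mean in high calcium, 15 rows lay below Prl2c5. Among them were Serping1 (-2.58), Cryaa, which encodes a lens crystallin (-2.47), and Lbp, the lipopolysaccharide binding protein (-2.42), named after their values were seen. All 15 had reversed values, and in all 15 the mean of the turned reversed arrays was above 0. Their pair means ranged from -1.09 to 0.23 with a median of -0.72, and 14 of the 15 were below 0, all nearer to 0 than the forward means. These rows were picked by their forward means, which are part of the pair values, so pair means nearer to 0 were largely fixed by the choice. Prl2c5 has no reversed value in high calcium, so its dye and RNA effects cannot be told apart from the high calcium arrays alone.

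**Figure D3:**
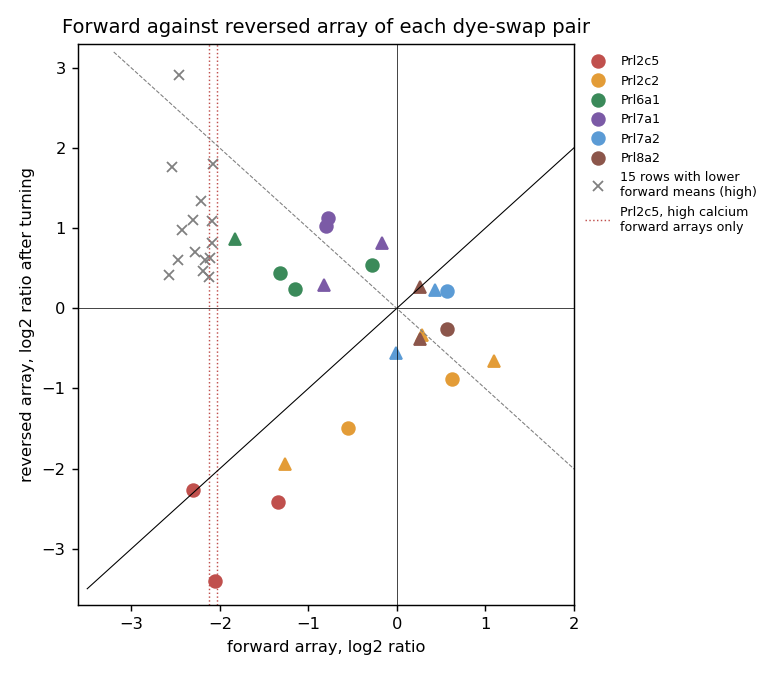
Forward array (x axis) against turned reversed array (y axis) of each dye-swap pair, log2 ratios, for the prolactin family genes (circles, low calcium; triangles, high calcium) and, as crosses, the high calcium array means of the 15 rows with forward means below that of Prl2c5. On the solid line both orientations read the same and on the dashed line the pair value is 0. The 3 Prl2c5 pairs are at the lower left, the crosses and Prl6a1 and Prl7a1 at the upper left, and dotted lines show the high calcium forward arrays of Prl2c5, which have no reversed value.

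The difference between calcium levels was described on forward arrays, where a dye component common to both levels cancels. The high calcium forward mean lay below the low calcium one by 0.18 on the log2 scale (-2.08 ± 0.07 against -1.90 ± 0.50, SD, n = 2 and 3 arrays), less than the spread of the low calcium arrays. No test is given, since the low calcium arrays chose the gene, and a small difference over so few arrays does not show that the levels respond alike. The sign of the difference changed when low calcium repeat 2 was left out (0.10, against -0.18). With arrays set to equal spread the difference was -0.89, so its size depends on the scaling of the arrays.

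Prl2c2, the other proliferin with a probe, had less uniform pair values in low calcium than Prl2c5 (SD 0.64, n = 2 pairs, against 0.42, n = 3 pairs). The Prl2c5 pairs are those that chose the gene. On the low calcium reversed arrays Prl2c2 was the more uniform (SD 0.33 against 0.62, n = 3 arrays each). In low calcium the Prl2c2 pairs were -1.02 in repeat 1 and -0.13 in repeat 3, and repeat 2 had only a reversed value (-1.39 after turning). In high calcium its pairs were -1.60, -0.02 and 0.23 in repeats 1 to 3. It was low in repeat 1 of both levels and near 0 in the other pairs, and it was not called (log2 -0.58 ± 0.35 in low calcium, n = 2 pairs, and -0.47 ± 0.29 in high calcium, n = 3 pairs, SE; limma adjusted p = 0.680 and 0.624). The turned reversed values of Prl2c2 were all below 0, from -1.94 to -0.34 in high calcium and -1.497, -1.39 and -0.88 in low calcium. Its forward values ran from -1.27 to 1.10 in high calcium and were -0.55 and 0.63 in low calcium. The component common to both orientations was above 0 in all its pairs, with a mean of 0.61 in low and 0.51 in high calcium, against 0.40 for Prl2c5 in low calcium. On the 7 arrays with a value for both probes, Prl2c5 had the lower ratio on 7, by 0.76 to 2.93 with a median of 1.5. Of these arrays 5 are the low calcium ones that chose Prl2c5, where a lower ratio was largely fixed by the choice. On the high calcium forward arrays, whose values are not in the ratio that chose Prl2c5, the gap was 0.76 in repeat 1 and 2.42 in repeat 2. These differences compare ratios, not levels, of the probes, and how much RNA of one gene bound the probe of the other was not tested.

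The other prolactin family genes with a probe were placental members, and none was called. Of 28 genes in the list, 6 had a probe. Prl6a1 and Prl7a1 had negative values on forward arrays and positive values on turned reversed arrays in both levels. For Prl6a1 in low calcium the forward values were -1.15, -0.28 and -1.32 in repeats 1 to 3 and the turned reversed values 0.24, 0.54 and 0.44, which left a pair mean of -0.25 (limma adjusted p = 0.709). For Prl7a1 the pair mean was 0.15 in low and 0.03 in high calcium (limma adjusted p = 0.902 and 0.965). Prl7a2 and Prl8a2 were tested in high calcium alone, at 0.02 and 0.10 (limma adjusted p = 0.973 and 0.879). Over the list, 1 of 4 tested genes was called in low calcium, which is Prl2c5 itself, beside 0.409% of all 4646 rows, and 0 of 4 in high calcium, beside 1.39% of all 7263 rows. Since Prl2c5 was chosen on that contrast, nothing is read from its own call. Without Prl2c5 the median of the 3 other tested genes was -0.25 in low calcium, and that of the 4 genes tested in high calcium, where Prl2c5 has no pair, was 0.03, against 0.02 and 0.01 for all rows.

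The genes nearest to Prl2c5 were sought among 2150 rows with a value on all 8 arrays that measured it, reversed arrays turned. These 8 arrays come from 5 repeats, so they are not 8 independent samples, and the likeness is a description. By the root mean square difference of the log2 ratios, the nearest were Serpinb2, an inhibitor of plasminogen activators (1.02), Sprr1a (1.04), Cav1, the caveolin of plasma membrane caveolae (1.17), Flg (1.24) and Itgb1, the beta-1 integrin subunit (1.29). The median over all rows was 2.43 and the 5th percentile 1.97. Of the 8 arrays, 6 are the low calcium ones that chose Prl2c5 for its low ratio. A small difference to it was therefore largely reserved for other rows with low ratios, and nothing is read from it about shared regulation. Sprr1a ranged from -4.06 to -1.08 over these arrays and Serpinb2 from -2.20 to -0.16, against -3.40 to -1.34 for Prl2c5. Itgb1 reached 0.15 on the forward array of low calcium repeat 2 and 0.01 on that of repeat 3. Apart from Prl2c5, 19 of the 2150 rows were below 0 on all 8 arrays, among them Sprr1a, Serpinb2, Flg and Cav1.

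**Figure D4:**
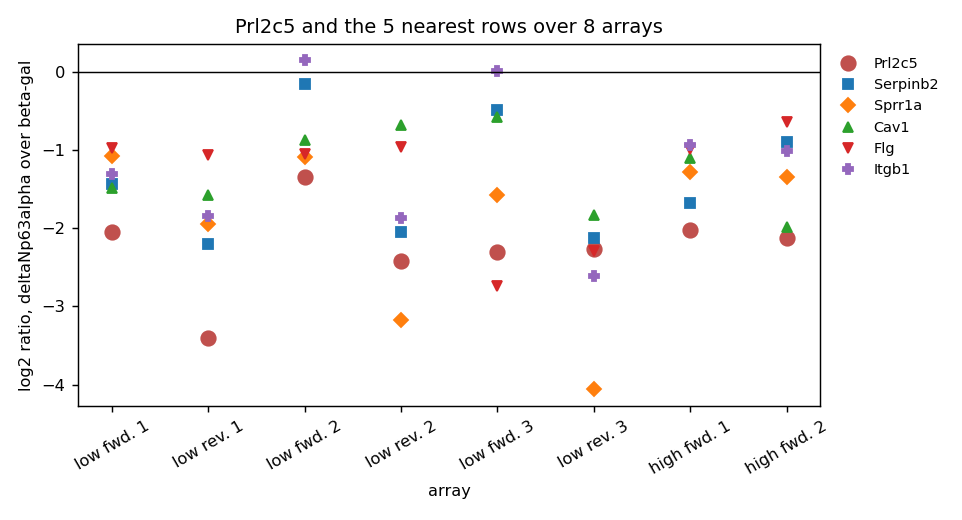
Log2 ratio (y axis) of Prl2c5 and of the 5 rows with the smallest root mean square difference to it, on each of the 8 arrays with a Prl2c5 value (x axis), reversed arrays turned. Prl2c5 has the lowest value of the 6 genes on 5 arrays, and Sprr1a, Flg or Itgb1 lie below it on some of the low calcium repeat 2 and 3 arrays.

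Pearson correlation, which ignores the level, picked other rows. The highest over the 8 arrays were an unnamed probe (0.850), Slc2a10, a glucose transporter gene (0.799), Col9a3, a chain of type IX collagen (0.787), B630019K06Rik (0.787) and Wdr12, a ribosome assembly factor (0.768), against a median of 0.161 over all rows. Their mean ratios lay between -0.33 and 0.23, far from the -2.24 of Prl2c5, and no row was among the nearest 5 by both measures. In low calcium Prl2c5 averaged -1.90 on forward and -2.70 on turned reversed arrays. Forward values also lay above all turned reversed ones for Col9a3, Wdr12 and the unnamed probe. For Col9a3 they were 0.052 to 0.594 against -0.221 to 0.037. For Slc2a10 and B630019K06Rik the orientations overlapped. How much of the correlation is a dye component was not tested.

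No gene of the receptor, AP-1 or growth factor lists was called at either level, and at 0.409% of all rows called in low and 1.39% in high calcium no call would be likely in lists of this length. Of the receptors, Igf2r, the mannose-6-phosphate receptor that binds proliferin, was at -0.11 ± 0.19 in low and -0.13 ± 0.19 in high calcium (SE, n = 2 pairs each; limma adjusted p = 0.925 and 0.841). M6pr, the smaller mannose-6-phosphate receptor, and Ghr, the growth hormone receptor, had pairs enough only in high calcium, at -0.05 and 0.00. Of the AP-1 subunits and the glucocorticoid receptor, 0 of 4 were called in low and 0 of 6 in high calcium, with medians of 0.17 and 0.23. Fosl1, an AP-1 subunit, had the smallest p in low calcium, with pairs at 0.40 and 0.79 (limma adjusted p = 0.286), followed by Nr3c1, the glucocorticoid receptor (0.21), and Jund (0.14). Fosl2, another AP-1 subunit, had the smallest p in high calcium, with pairs at -0.60 and -0.87 in repeats 2 and 3 (limma adjusted p = 0.0903), followed by Fos (0.54) and Jund (0.24).

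Of growth factor genes and receptors linked to proliferin induction, 0 of 9 were called in low and 0 of 11 in high calcium, with medians of 0.04 and 0.07. Pdgfb, the B chain of platelet-derived growth factor, was below 0 in all its pairs, at -0.44 and -0.51 in low calcium and at -0.40, -0.47 and -0.61 in high calcium (limma adjusted p = 0.370 and 0.142). In low calcium Tgfa and Egf, ligands of the epidermal growth factor receptor, followed at 0.19 each. In high calcium Myc, a growth-promoting transcription factor, and Egfr, that receptor, followed at -0.47 and 0.24. Of secreted angiogenic and antiangiogenic factors, 1 of 5 was called lower in low calcium and 1 of 7 in high calcium, beside 0.387% and 0.840% of all rows called lower, and both were Thbs1. Thbs1 encodes thrombospondin-1, an inhibitor of blood vessel growth, with pairs at -1.58, -0.83 and -0.89 in low calcium (limma adjusted p = 0.0450) and at -0.91 and -1.88 in high calcium (limma adjusted p = 0.0214). With any 1 low calcium pair left out the low calcium value did not pass (limma adjusted p = 0.205, 0.0551 and 0.0520 without repeats 1, 2 and 3). With the unpaired forward array of high calcium repeat 3 kept, the high calcium value was -0.58 (limma adjusted p = 0.878). Thbs1 also passed at neither level when the variance was trended and robust (limma adjusted p = 0.420 in low and 0.343 in high calcium) or when arrays were set to equal spread (limma adjusted p = 0.764 and 0.135).

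Markers of cell types other than keratinocytes were not called, which is also the usual outcome for short lists at 0.409% and 1.39% of all rows called. None of the fibroblast markers was called (0 of 4 in low calcium, from -0.09 to 0.20, and 0 of 6 in high calcium, from -0.22 to 0.27). None of the trophoblast markers was called either (0 of 2 in low and 0 of 4 in high calcium, from -0.34 to 0.49 over both levels), nor any of the endothelial (0 of 5 and 0 of 4), leukocyte (0 of 2 and 0 of 3) or melanocyte markers (0 of 1 at each level). Among keratinocyte markers 0 of 3 were called in low and 1 of 6 in high calcium, the suprabasal keratin Krt10 (log2 -1.57 ± 0.20 SE, n = 2 pairs; limma adjusted p = 0.00821), beside 0.840% of all rows called lower. The Krt10 call was lost at equal spread, with a trended and robust variance and with single arrays kept (limma adjusted p = 0.0524, 0.343 and 0.601). The files hold ratios and no intensities, so how much Prl2c5 RNA the control cells held, and whether fewer cells made it or each cell made less, was not measured.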

How the data were processed

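The authors deposited 1 log2 dye ratio per probe and array; base 2 was taken from the range of the values (-7.88 to 4.60), since no source names it. The median of every array was within -0.0005 to 0.0005, which shows centring before deposit. How arrays were scanned, corrected for background, normalised and filtered is not given in the labels. RNA was labelled with Cy3 or Cy5, per the labels' protocols.

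Probes were named from the platform annotation, updated through gene IDs (GRCm38.p6), and averaged by symbol, which gave 6774 genes and 2101 unnamed rows. Each array was centred on its median. A pair value was the mean of the forward array and the turned reversed array, and a pair lacking either was missing. Pairs of both levels were fitted together in limma 3.58.1 (R 4.3.3, lmFit and eBayes), with rows of at least 2 pairs tested and Benjamini-Hochberg adjusted p under 0.05 called. The forward arrays of high calcium were fitted alone, against 0, over rows with at least 2 values. The fits were tested on simulated data.

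Arrays of the same orientation correlated at 0.367 to 0.758 (forward) and 0.245 to 0.721 (reversed) over all rows. Prl2c5, the gene lists and the tests were chosen with earlier results of these data known. Named genes were Prl2c5, Trp63, every prolactin family gene with a probe, called members or the 3 smallest p of each pathway list, the next named genes by low calcium mean, and the 5 nearest rows by each of 2 likeness measures; others are marked. Alternatives were the kept deposited signs, no centring, arrays on the same spread, a trended and robust variance, single arrays kept, repeats left out, a dye term and the repeat number as a block.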

Additional observations from a re-analysis of the deposited data

Results flagged for a closer look

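Of the prolactin family genes and Trp63, each calcium level with 4 or more arrays was checked for an array apart from the others, and chance sets apart about 1 in 20 groups. The turned reversed array of high calcium repeat 1 stood apart for Prl8a2, at -0.3825 against 0.261 to 0.266 on the other arrays (n = 4 arrays). The turned reversed array of low calcium repeat 2, stood apart for Trp63, at 1.905 against -0.999 to -0.573 on the others (n = 4 arrays). No Prl2c5 array stood apart: the lowest of its 6 low calcium arrays, at -3.40, was separated from the next by 0.480 of the whole range, under the limit of 0.625.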

How the results depend on the processing

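The low calcium mean of Prl2c5 (-2.30) stayed between -2.70 and -1.90 under all alternatives tried except one: with the deposited signs kept it was 0.40. With 1 low calcium repeat left out it ranged from -2.51 to -2.08. In high calcium the value ranged from -2.69 to -2.03 and no alternative fitted to high calcium arrays alone passed. It was past the threshold in the fit with a dye term and the dye-swap pair as a random block (-2.48). With a dye term and the repeat number as a block it was not (-2.47). In both fits 6 of 8 values are the low calcium ones that chose the gene, so neither is a test of high calcium. Without high calcium repeat 1 or 2 a single array remained (-2.13 or -2.03), with no test, and a filter of at least 3 forward values left no value. With arrays set to equal spread the difference between levels was -0.89, and with 1 repeat left out it ranged from -0.38 to 0.10. The count of 19 calls in low calcium became 763 with the deposited signs kept, 59 with the repeat number as a block, and 0 with a trended and robust variance, when single arrays were kept and when arrays were set to equal spread (limma; 401, 512 and 272 rows at an unadjusted p under 0.05). With 1 repeat left out it was 6 to 18. The 101 calls in high calcium became 1 at equal spread, 117 with the block, 0 with the deposited signs kept, a trended and robust variance or single arrays kept (limma; 1270, 585 and 555 at an unadjusted p under 0.05), and 33 to 104 with 1 repeat left out. With the deposited signs kept, only the component common to both orientations remains, so those counts and values do not compare deltaNp63alpha with the control. The cause of the other changes was not tested. Kept signs changed the sign of 5 of 6 called and 14 of 33 uncalled values of named genes, among them Prl2c2 (0.61 in low, 0.51 in high calcium), Trp63 in high calcium (0.16), Thbs1 (0.86 in low, 0.14 in high calcium), Sprr1a (0.91 and 0.32), Flg in high calcium (0.29) and Prl7a1 in low calcium (-0.93). Same-numbered pairs of both levels correlated at -0.03, -0.11 and 0.20 in their deviations, and the others at -0.29 to 0.27. With 3 pairs per level this cannot decide whether the numbers pair the samples, and the main fit did not pair them. The block could not change the low calcium mean of Prl2c5 (-2.30), since the gene has no high calcium pair. The gene values were recomputed under these alternatives after the data were seen.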
